A study of Mus musculus with 24 samples.

Results

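TRBV31, long known as Vβ14, is the V segment of the mouse T cell receptor β locus that lies on the far side of the second constant gene. Its receptors were followed here in CT26 tumors. The TCRβ tables of 24 tumors were searched for sequences assigned to TRBV31, with any allele ending ignored and at least 2 counts required. This gave 2580 productive sequence rows of 75357 and 1141 rows of 28943 carrying the stop mark. The productive rows held 116559 of 7463100 counts (1.56%). Merged by CDR3 amino acid sequence, V segment and J segment, they formed 2011 distinct clonotypes, or 2395 when summed over tumors. TRBV31 was 1 of 25 TRBV segments found among the productive rows.

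CT26.CL25, a mouse colon carcinoma line that carries the lacZ gene, was grown under the skin of both flanks in 12 female BALB/c mice aged 7 to 9 weeks. In the time-matched group (mice 6, 12 and 14, untreated) both tumors were taken on day 13. In the time-separated group (mice 4, 17 and 19, untreated, also the vehicle group) 1 tumor was removed by surgery and the other 11 days later. The low-dose group (mice 3, 11 and 20, decitabine at 0.5 mg/kg) and the high-dose group (mice 7, 10 and 16, decitabine at 2 mg/kg) followed the same surgery, with the drug, an inhibitor of DNA methylation, given into the abdomen on 5 consecutive days between the tumors. In each decitabine mouse the first tumor was thus removed before the drug was given, and only the later tumor met it. All groups share the host strain, the tumor line and the bilateral design. Tumors carry the numbers 1 and 2, and since nothing says which was taken first, no direction in time is given. RNA came from whole tumors, and fewer T cells using a segment cannot be told apart from less receptor RNA per cell.

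A β chain gene is assembled in the developing T cell when a D segment joins a J segment and a V segment then joins that pair, with bases trimmed and added at both joints. Nearly all mouse Vβ segments lie before the D, J and C segments in the same direction and join by deletion of the DNA between. TRBV31 lies after them in the opposite direction and joins by inversion, which leaves the DNA between in the chromosome. In the RefSeq annotation of assembly GRCm38.p6 its gene, Trbv31, follows Trbc2, which follows Trbd2, Trbc1, Trbd1 and Trbv30. A joint that loses the reading frame gives no β chain but can stay in the cell beside a productive joint on the other chromosome, so non-productive sequences carry a record of joining that the receptor protein did not shape.

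The most abundant TRBV31 sequence of the series, from tumor 1 of mouse 7, is shown so that the region that was read can be seen. It is printed from the 3' part of the V segment to the J segment, with the CDR3, which encodes the loop that touches antigen, in capitals:
TRBV31-TRBJ2-4 of mouse 7: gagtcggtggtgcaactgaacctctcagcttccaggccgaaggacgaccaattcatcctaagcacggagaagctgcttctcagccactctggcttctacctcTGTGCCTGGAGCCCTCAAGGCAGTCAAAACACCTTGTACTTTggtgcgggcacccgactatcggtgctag
This row alone held 10559 counts, with 102 bases before the CDR3, 42 within it and 28 after it.

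The CDR3 sequences below are those of the largest TRBV31 clonotype of 4 mice and of the clonotypes found in most mice. Lower case marks bases that match the common V start or J end, and capitals mark the bases between them, where D segment and added bases lie when present. The tables name no D segment for the sequence of mouse 7 or for the last 3 shared forms:
Mouse 7, TRBJ2-4: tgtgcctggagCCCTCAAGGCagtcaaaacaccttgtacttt
Mouse 10, TRBJ2-4, same amino acids as mouse 7: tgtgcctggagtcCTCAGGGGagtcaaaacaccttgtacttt
Mouse 17, TRBJ1-1: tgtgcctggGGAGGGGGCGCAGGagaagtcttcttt
Mouse 6, TRBJ2-3: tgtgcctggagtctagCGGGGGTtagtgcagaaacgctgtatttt
Mouse 4, TRBJ2-2: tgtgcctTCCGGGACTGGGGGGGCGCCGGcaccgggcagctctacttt
Shared, TRBJ2-5, mice 17, 19 and 3: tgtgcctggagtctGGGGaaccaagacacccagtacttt
Shared, TRBJ2-5, mice 20 and 16: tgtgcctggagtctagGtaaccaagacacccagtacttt
Shared, TRBJ2-5, mice 6, 14 and 11: tgtgcctggagccaagacacccagtacttt
Shared, TRBJ2-5, mice 12, 17 and 20: tgtgcctggagtcaagacacccagtacttt
The common V start was tgtgcctggagtctag. It was extended base by base. Each is the base held by over 50% of the distinct productive TRBV31 sequences that match all bases before it. Each printed sequence begins with a stretch of this start, the shortest being the 7 bases of mouse 4.

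TRBV31 made up a middling part of the β repertoire. Its mean share of productive counts over the 12 mice was 2.46% ± 1.73 (SD, 1 value per mouse), the 10th highest of the 17 V segments with a mean of at least 0.5%. TRBV17 led with 27.8% ± 13.9, and the neighbors of TRBV31 in that order, TRBV1 at 2.51% ± 1.97 and TRBV14 at 1.82% ± 1.92, differed from it by less than their spread.

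Among the time-matched mice, tumors 1 and 2 of mouse 6 had shares of 1.76% and 1.52%, those of mouse 12 had 0.276% and 0.345%, and those of mouse 14 had 0.699% and 0.456%. Among the time-separated mice, mouse 4 had 3.74% and 3.95%, mouse 17 had 5.12% and 3.72%, and mouse 19 had 3.61% and 0.358%. Tumor 2 of mouse 19 thus lay within the range of the time-matched tumors, while the other 5 time-separated tumors lay above all 6 of them. In the low-dose group, mouse 3 had 2.46% and 5.83%, mouse 11 had 2.66% and 1.62%, and mouse 20 had 2.03% and 4.55%. In the high-dose group, mouse 7 had 5.41% and 5.53%, mouse 10 had 1.97% and 0.393%, and mouse 16 had 0.516% and 0.432%. The high-dose tumors thus spread over nearly the range of all other tumors. The TRBV31 counts behind a share ran from 736 to 15335 per tumor, and the 95% Clopper-Pearson interval of the lowest count, 0.332% to 0.384% in tumor 2 of mouse 19, shows that counting error is small beside the spread between mice. Such intervals cover counting error only, since amplified reads need not be independent molecules.

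**Figure D1:**
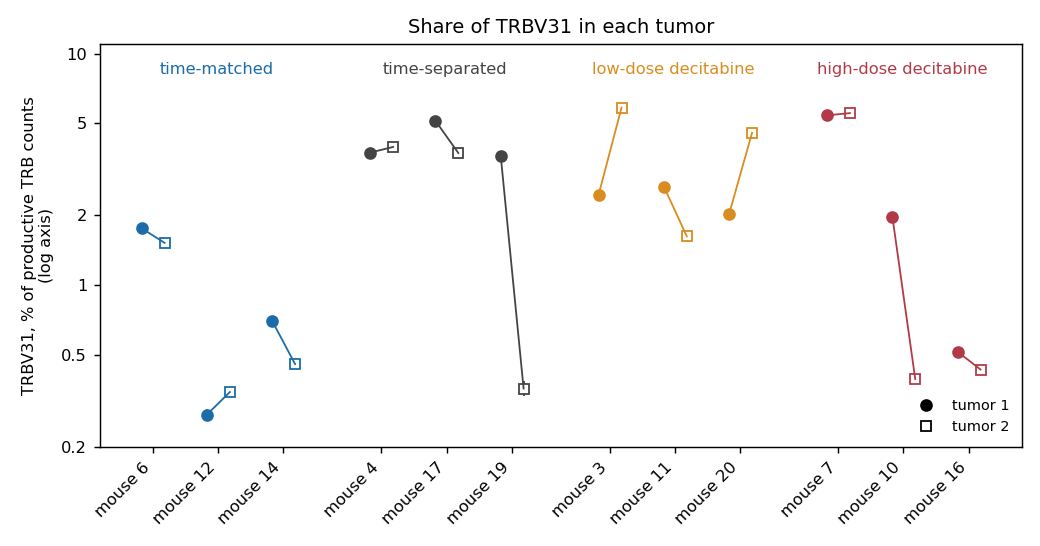
TRBV31 as a percentage of productive TCRβ counts (y axis, logarithmic) in both tumors of each of 12 mice (x axis), with 95% Clopper-Pearson intervals that are mostly smaller than the symbols. Time-matched tumors sit between 0.276% and 1.76%, and mice 19 and 10 show the steepest lines between tumors.

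By group, the mean was 3.42% ± 1.27 in time-separated, 3.19% ± 1.01 in low-dose mice, 2.38% ± 2.70 in high-dose mice and 0.843% ± 0.704 in time-matched mice (SD, n = 3 mice each). Neighbors in this order differed by less than the larger of their SDs. The time-separated mean lay 2.57 percentage points above the time-matched mean, and the mouse means of these groups did not overlap (two-sided exact permutation p = 0.1, the smallest that 3 against 3 mice allow). The median V segment rose as well, in the fit given below. These groups also differ in surgery and in the days of harvest. The untreated time-separated mice and the 6 decitabine mice, whose tumors were also taken at separate times, are together called all 9 time-separated mice. They lay 2.15 points above the time-matched mice (exact permutation p = 0.0591). In this contrast the interval, the surgery, the days of harvest and the drug cannot be told apart. Leaving out 1 mouse at a time gave exact permutation p from 0.0303 without mouse 16 to 0.182 without mouse 12, with mouse 10 the other mouse whose removal took it below 0.05 (p = 0.0485). With the largest TRBV31 clonotype of every mouse left out the difference was 1.20 points (exact p = 0.0455). With each clonotype counted once it was 1.46 points (exact p = 0.15), and 0.683 points (exact p = 0.214) with sequences 1 base from a far larger one left out as well. Low-dose decitabine lay slightly below time-separated (difference -0.222, exact permutation p = 0.8) and high-dose further below (difference -1.04, p = 0.7), both inside the spread between mice. The low-dose difference turned above 0 with clonotypes counted once (0.763) and without mouse 11 (0.303) or mouse 17 (0.281). Leaving out 1 mouse moved the high-dose difference between -2.59 without mouse 7 and -0.0888 without mouse 16. Each of these mouse values averages a tumor taken before the drug with one taken after it, so that they are not a measure of treated tumors alone.

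Library depth moved with these shares. The 5 mice with the lowest TRBV31 shares (12, 16, 14, 10 and 6) were also the 5 with the most productive counts per tumor. Time-matched libraries held 375898 to 610800 productive counts and time-separated ones 97815 to 207072. The 10 largest clonotypes of any V segment took 73.3% to 80.9% of the counts in time-matched tumors and 30.1% to 72.5% in time-separated ones. With those 10 left out of each tumor, the time-separated mean was 1.67 points above the time-matched one (exact permutation p = 0.4). The part of depth and of large clonotypes of other V segments in the difference was not tested.

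For TRBV31 in a fit over all V segments, edgeR's quasi-likelihood test on summed counts put time-separated above time-matched by a log2 fold change of 1.93 (SE 1.00, Benjamini-Hochberg adjusted p = 0.283 over 25 segments). The median of all 25 segments was 0.914. TRBV14, TRBV29 and TRBV30, the segments most like TRBV31 by share, stood at 2.12, 1.47 and 1.33. Leaving out 1 mouse moved the TRBV31 value between 1.53 without mouse 12 and 2.87 without mouse 6 (adjusted p = 0.563 and 0.0926). It was 0.47 (SE 0.69, adjusted p = 0.710) with TMM scaling, which assumes that most segments keep their level and moved the median of all 25 segments by -1.35, and 0.63 (adjusted p = 0.618) with clonotypes counted once. None of the 25 segments was called in that comparison (0.0%) by edgeR, 2 had an unadjusted p under 0.05, and DESeq2 called 2, neither of them TRBV31. Against time-separated mice, the log2 fold change of TRBV31 was -0.16 (SE 0.97, adjusted p = 0.907) for low-dose and -0.47 (SE 0.97, adjusted p = 0.927) for high-dose decitabine. Both turned positive with TMM scaling, at 0.28 and 0.35 (adjusted p = 0.861 and 0.925), which moved the median of all segments by 0.27 and 0.78. The high-dose value was -2.02 (adjusted p = 0.685) without mouse 7 and 0.01 without mouse 16. No segment was called by edgeR in either comparison (0.0% each), with 1 segment at an unadjusted p under 0.05 in each and 0 calls by DESeq2.

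Between the tumors of a mouse, the share could hold still or move several-fold. In the 9 time-separated mice tumor 2 minus tumor 1 averaged -0.126 percentage points (two-sided exact sign-flip p = 0.883), with tumor 2 higher in 4 of 9. Mouse 19 moved by -3.25 points and mouse 3 by 3.37 points, and without mouse 19 the mean was 0.265. By group the mean was -1.48 in untreated time-separated, 1.62 in low-dose and -0.514 in high-dose mice. The edgeR fit with mouse as a block gave a log2 fold change of -0.44 (SE 0.50, adjusted p = 0.560), or -0.21 with TMM scaling, where 1 of 25 segments (4.0%), TRBV1, was called. The absolute log2 ratio between tumors was 0.208, 0.323 and 0.617 in the time-matched mice. In the 9 time-separated mice it ran from 0.0319 in mouse 7 to 3.33 in mouse 19, with a median of 0.713. The means differed by 0.685 (exact permutation p = 0.332), or 0.402 without mouse 19, and the groups overlapped.

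Counted as clonotypes instead of counts, TRBV31 varied less. It formed 4.12% ± 1.57 of clonotypes against 2.46% ± 1.73 of counts, a difference of -1.66 points ± 0.837 (SD, 12 mice, exact sign-flip p = 0.000977), and the count share was the lower in 11 of 12 mice. The exception was mouse 7, whose largest TRBV31 clonotype is described next. The ratio of count share to clonotype share was 0.596, the 5th lowest of 17 V segments. The mean count share exceeded the mean clonotype share for TRBV17, TRBV13-1, TRBV13-2 and TRBV15, and was the lower for all others of the 17. A lower count share was thus not particular to TRBV31. Whether TRBV31 differs in this ratio from the other segments taken alone was not tested. Part of the listed clonotypes differ by 1 base from a sequence at least 10 times larger in the same tumor, as reading errors do. With such near copies left out, TRBV31 kept 1582 of 2395 clonotypes and the other segments 32009 of 58967. The TRBV31 share of clonotypes was then 4.74% ± 0.783, between 3.63% and 5.73% in every mouse, and its difference from the count share was -2.24 points (exact sign-flip p = 0.000977). At an equal depth of 63291 counts the expected number of TRBV31 clonotypes per tumor was 52.3 to 115 in time-matched, 16.4 to 149.5 in time-separated, 58.1 to 109.8 in low-dose and 30.3 to 127.7 in high-dose mice.

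The TRBV31 counts of a tumor could belong almost wholly to 1 clonotype or be spread over many. In mouse 7 the TRBJ2-4 clonotype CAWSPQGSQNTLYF held 10660 counts in tumor 1 and 2919 in tumor 2, or 3.76% and 4.55% of all productive counts, and 69.5% and 82.2% of the TRBV31 counts. It was the 7th largest clonotype of any segment in both tumors. In mouse 17 the TRBJ1-1 clonotype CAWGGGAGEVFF held 2.95% and 2.76% of all counts, and 57.5% and 74.1% of the TRBV31 counts. Both were large in both tumors of their mouse. The TRBJ2-3 clonotype of mouse 6 printed above was smaller but as even, at 0.750% (95% Clopper-Pearson interval 0.729% to 0.773%) and 0.641% (0.615% to 0.667%).

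Other leading clonotypes differed between tumors by far more than counting error. The TRBJ2-2 clonotype of mouse 4 held 1.20% of tumor 1 (1.14% to 1.25%) and 0.116% of tumor 2 (0.100% to 0.133%). In mouse 3 a TRBJ2-3 clonotype held 0.461% of tumor 1 and 2.15% of tumor 2. These 2, with those of mice 6 and 7, had the largest difference in share between tumors in their groups. The largest TRBV31 clonotype of mouse 19, with TRBJ1-6, held 687 counts (0.702%) in tumor 1 and 0 of 205823 in tumor 2, which allows a share of up to 0.00146%. In mouse 10 the largest, with TRBJ2-3, held 1052 counts in tumor 1 and 9 in tumor 2, or 0.317% and 0.00223%. The leading clonotypes of mice 11, 20 and 16 held 0.861% and 0.100%, 0.251% and 1.81%, and 0.0313% and 0.171% of their tumors. In the time-matched mice 12 and 14 the leaders were small: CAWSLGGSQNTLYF with TRBJ2-4 held 0.0115% and 0.0251%, and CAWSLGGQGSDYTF with TRBJ1-2 held 0.102% and 0.0136%. No replicate library of a tumor exists, so the spread between samplings of 1 tumor is not known.

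**Figure D2:**
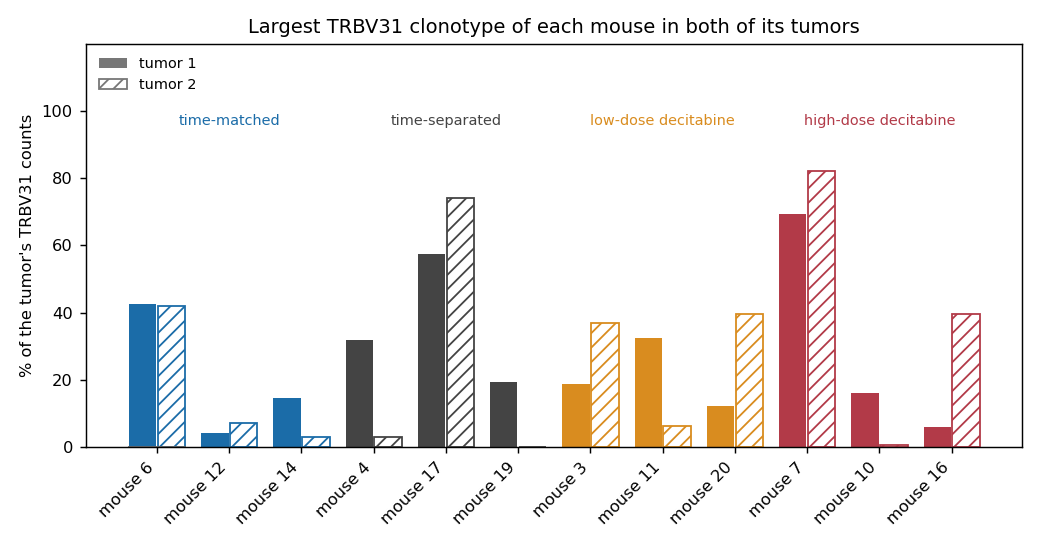
Share of each tumor's TRBV31 counts (y axis, percent) held by the largest TRBV31 clonotype of each mouse, with filled bars for tumor 1 and hatched bars for tumor 2. In mice 7 and 17 this clonotype held over 50% in both tumors, while in mouse 19 it was seen in tumor 1 alone.

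The likeness of both tumors of a mouse was measured with the Morisita-Horn index, which runs from 0 for no shared clonotypes to 1 for the same clonotypes in the same proportions. Within TRBV31 it was 0.975, 0.551 and 0.442 in the time-matched mice 6, 12 and 14. It was 0.330, 0.959 and 0.0664 in the time-separated mice 4, 17 and 19, then 0.725, 0.375 and 0.678 in the low-dose mice 3, 11 and 20, and 0.981, 0.0457 and 0.331 in the high-dose mice 7, 10 and 16. The highest values were those of mice 7, 6 and 17, in each of which 1 clonotype led both tumors. All 9 time-separated mice averaged below the time-matched mice (difference -0.157, exact permutation p = 0.518), and without mouse 6 the difference was 0.00227. The numbers of TRBV31 clonotypes in both tumors ran from 2 of 130 in mouse 19 to 57 of 214 in mouse 6.

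Set against all other V segments pooled, TRBV31 was the less alike between tumors (0.538 ± 0.331 against 0.768 ± 0.196, difference -0.230, SD over 12 mice, exact sign-flip p = 0.0537). Without mouse 7 this exact p was 0.0117 and without mouse 3 it was 0.0293. With the largest TRBV31 clonotype of each mouse left out the difference was -0.353 (exact p = 0.00146). A pool of many segments is not like a single one, however. Against the mean of the 16 other segments each taken alone, 0.580 ± 0.186, the difference was -0.0419 (exact p = 0.643), and TRBV31 ranked 11th of 17.

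**Figure D3:**
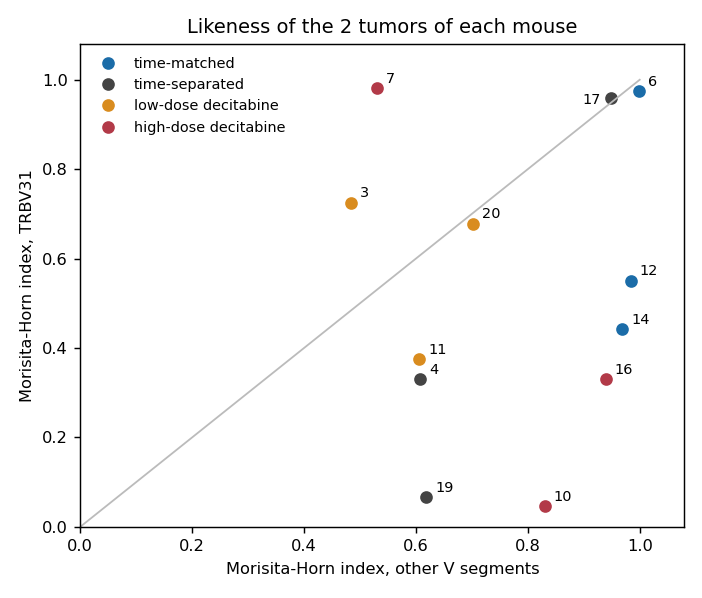
Morisita-Horn index between both tumors of a mouse for TRBV31 clonotypes (y axis) and for all other V segments pooled (x axis), 1 point per mouse with its number, and the line of equal values. Mice 7, 3 and 17 lie above the line, and mice 19 and 10 lie lowest.

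Tumors of different mice shared little. Over 264 pairs of tumors from different mice the median TRBV31 index was 0.0. In 23 of 24 tumors the highest index was that with the other tumor of the mouse. The exception was tumor 2 of mouse 10, with 0.437 against tumor 1 of mouse 7 and 0.0457 against its own pair. The shared clonotype was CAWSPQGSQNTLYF, which held 306 of the counts (19.3% of TRBV31) in that tumor and 14 in tumor 1 of mouse 10. As the printed lines show, the main sequences of these mice encode the same amino acids with other bases, and the sequence of mouse 7 was not found in mouse 10. The leading clonotype of mouse 6 was likewise met in tumor 1 of mouse 14 with 13 counts and another nucleotide sequence. The leading clonotype of mouse 4 was different: its 22 bases between V and J occurred unchanged in tumor 1 of mouse 17, with 31 counts there against 2071 in tumor 1 of mouse 4. A 1-base copy of it, with 11 counts in mouse 4, occurred in the same tumor of mouse 17 with 2 counts. Whether these sequences passed between libraries was not tested.

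Of the 2011 distinct TRBV31 clonotypes, 1941 were found in 1 mouse, 62 in 2, 3 in 3 and 3 in 4 mice. The most widespread was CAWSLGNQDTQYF with TRBJ2-5, in 7 mice and 8 tumors. It was built from 4 different main nucleotide sequences, of which the one ending its V match at tgtgcctggagtct with GGGG was the main one in 3 mice. Its highest share was 0.0962% in tumor 2 of mouse 4. Next came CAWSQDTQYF with TRBJ2-5, in 6 mice and 6 tumors, at 2 to 42 counts. Both of its nucleotide forms, each in 3 mice, consist of V and J bases alone, with no base between the matches. Of the 3 clonotypes found in 4 mice, the one with the highest summed share, with TRBJ2-4 and 10 bases between the matches in 3 of its 4 mice, reached 185 counts in tumor 1 of mouse 4. None of these had the largest mean share in a mouse. In tumor 1 of mouse 16, where the leading TRBV31 clonotype of that tumor held 9.22% of the TRBV31 counts, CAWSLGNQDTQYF held 323 counts (7.06%), and in tumor 2 it held 72 (4.12%). At the level of nucleotides, the 23 productive sequences found in 2 or more mice had a median of 5 bases between the matches, and the 2206 found in 1 mouse a median of 12.

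On average 8.12% ± 2.11 of the TRBV31 clonotypes of a tumor were found in another mouse, against 13.6% ± 2.59 of those of all other segments, a difference of -5.50 points (exact sign-flip p = 0.000488, the smallest that 12 mice can give, lower in all 12). Against the other 16 segments each taken alone, which is nearer to a comparison of like with like, it was -2.77 points (exact p = 0.0474), lower in 8 of 12 mice, and -1.24 points (exact p = 0.266) with near copies left out. TRBV31 ranked 11th of 17 segments by this share.

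The CDR3 of TRBV31 differs from that of other segments in its first residues. With each clonotype counted once per mouse, 1913 of 2099 (91.1%) had tryptophan at the third position, against 2 of 49030 with other segments. Of the TRBV31 clonotypes 68.1% began CAWS, 6.72% CAWR and 4.19% CAWG, while 51.9% of the other clonotypes began CASS. After CAWS the fifth residue was leucine in 52.4%, which the whole V end encodes, proline in 19.0% and arginine in 11.2%. Only 22 TRBV31 clonotypes (1.05%) began CASS. The whole 16-base V end was kept in 276 of 2258 productive sequences (12.2%), counted once per mouse, and the mean length of its match was 11.7 bases.

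The mean CDR3 length was 13.9 ± 0.316 amino acids for TRBV31 and 13.7 ± 0.284 for the other segments, a difference of 0.208 ± 0.326 (SD, 12 mice, exact sign-flip p = 0.0493), longer in 9 of 12 mice. The difference was 0.0447 (exact p = 0.405) with near copies left out and 0.0583 (p = 0.442) at a minimum of 5 counts, so the call was lost under both filters. It was also lost without any 1 of 9 mice. Weighted by counts the difference was 0.800 (exact p = 0.00195). TRBV31 ranked 8th of 17 segments by length, with TRBV5 the longest at 14.5 and TRBV17 the shortest at 12.6. Against the other 16 segments each taken alone the difference was 0.201 (exact p = 0.0327), 0.488 (exact p = 0.0117) with counts as weights and 0.0541 (exact p = 0.287) with near copies left out. A length of 14 was the most common in both, with 26.4% and 23.6% of clonotypes. Length 12 was held by 16.1% of TRBV31 clonotypes and 8.41% of the others, and length 11 by 3.81% and 11.8%, near copies included.

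**Figure D4:**
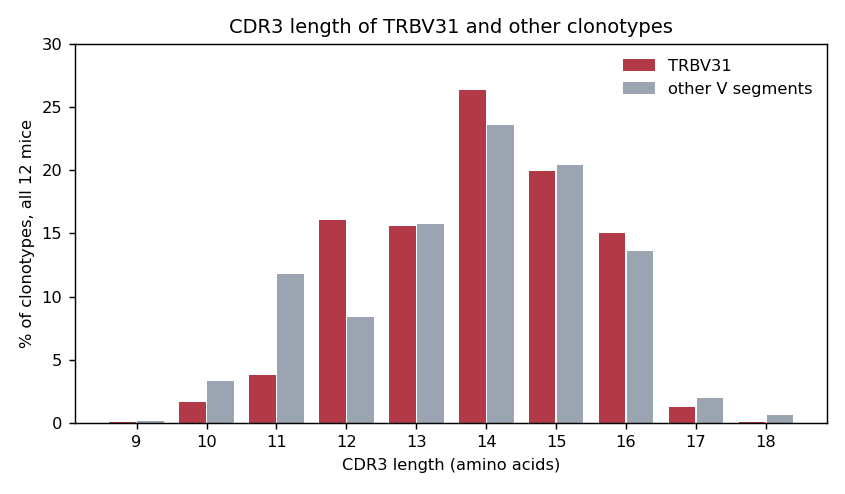
Percentage of clonotypes (y axis) by CDR3 length in amino acids (x axis) for TRBV31 and all other V segments, each clonotype counted once per mouse and all 12 mice added up. Both peak at 14, and TRBV31 has fewer clonotypes of length 11 and more of length 12.

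The number of bases left between the matches depends on the length of the common ends. For V segments these ran from 13 bases (TRBV4) to 19 (TRBV17), with 16 for TRBV31, and their part in the differences was not tested. Between the V and J matches TRBV31 sequences had 12.5 ± 1.80 bases and the others 14.1 ± 1.14, a difference of -1.61 ± 2.36 (exact sign-flip p = 0.0410), with TRBV31 shorter in 8 of 12 mice. It was widest in the time-matched mice at -3.48, against -0.216 in the time-separated mice, where 2 of 3 were longer, -0.805 in low-dose and -1.93 in high-dose mice. With near copies left out, it was -1.02 (exact p = 0.0278), with the call lost without any 1 of mice 14, 19 and 16. The call with near copies included was lost with single counts kept (-1.13, exact p = 0.0781) and without any 1 of 8 mice. Weighted by counts it turned to 1.42 bases longer (exact p = 0.0127). Against the other 16 segments each taken alone, which averaged 12.4 ± 0.531, the difference was 0.0350 (exact p = 0.942). The shorter insert was thus seen against the pool, in part of the settings, and not against the average segment. A D segment was named for most sequences: TRBD1 for 42.1% ± 11.3 and TRBD2 for 38.2% ± 9.50 of TRBV31 sequences, against 39.7% ± 5.85 and 36.1% ± 3.44 with other segments. With near copies left out TRBD2 was named for 39.2% against 34.2% (difference 4.99 points, exact sign-flip p = 0.0303), higher in 10 of 12 mice. The call was lost without any 1 of mice 12, 19 and 3. The D names can rest on few bases. In the largest TRBV31 clonotype of mouse 12 the 4 bases between the matches were named TRBD1. The same 4 bases were named TRBD2 in the most widespread clonotype in mouse 17. How often the D segment was named correctly was not tested.

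The TRBJ2 cluster, the J segments nearer to TRBC2, gave fewer of the J partners of TRBV31, though not in the time-matched mice. Over all 12 mice they were TRBJ2 in 60.8% ± 15.2 of TRBV31 clonotypes and 72.8% ± 5.43 of the others, a difference of -12.1 points ± 17.7 (exact sign-flip p = 0.0415), lower in 8 of 12 mice. By group the difference was 1.91 in time-matched mice, where 2 of 3 lay higher, and -12.6, -23.5 and -14.1 in time-separated, low-dose and high-dose mice, and whether the groups differ was not tested. With near copies left out the difference was -7.80 points (exact p = 0.0142), lower in 10 of 12. Leaving out any 1 of mice 17, 19, 3, 11, 20, 10 and 16 took the p above 0.05, with a difference between -12.6 and -9.25. The share ran from 35.5% in mouse 17 to 79.6% in mouse 7. Against the other 16 segments each taken alone the difference was -8.66 points (exact p = 0.111), and -7.16 (exact p = 0.0249) with near copies left out. TRBV31 had the lowest TRBJ2 share of the 17 segments, but TRBV16 at 62.2%, TRBV15 at 62.3% and TRBV2 at 63.1% lay within its spread.

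Of 12 TRBJ segments tested, 2 (16.7%) were called after Benjamini-Hochberg adjustment, both lower with TRBV31. TRBJ2-1 was the partner of 6.07% ± 2.90 of TRBV31 clonotypes against 16.0% ± 5.65 of the others (difference -9.91 points, exact sign-flip adjusted p = 0.0117), lower in 11 of 12 mice. TRBJ2-5 was the partner of 7.09% ± 3.01 against 13.4% ± 5.52 (difference -6.28 points, adjusted p = 0.0146), lower in 11 of 12 mice, although both of the most widespread TRBV31 clonotypes used it. With near copies left out 4 were called, the further ones being TRBJ2-7, lower by 5.53 points (difference -5.53, adjusted p = 0.0332), and TRBJ2-3, higher by 4.51 points (adjusted p = 0.0366). Against the other 16 segments each taken alone 3 were called, TRBJ2-1 (difference -8.11, adjusted p = 0.00586), TRBJ2-5 (-5.28, adjusted p = 0.00586) and TRBJ2-7 (-7.48, adjusted p = 0.0430), and the same 3 with near copies left out. TRBJ2-3 was the most frequent TRBV31 partner, at 15.1% ± 12.1 against 7.61% ± 2.82, followed by TRBJ2-4 at 12.9% ± 14.2 and TRBJ2-7 at 12.9% ± 6.75. Among TRBJ1 segments the TRBV31 shares were 11.0% for TRBJ1-1, 7.18% for TRBJ1-2, 4.19% for TRBJ1-3, 7.86% for TRBJ1-4, 2.74% for TRBJ1-5 and 6.26% for TRBJ1-6, and TRBJ2-2 had 6.70%. Of these, TRBJ1-4 came nearest to a call, higher by 2.75 points in 10 of 12 mice (adjusted p = 0.0718). TRBJ2-1 was the J segment still called with counts as weights (adjusted p = 0.0176). The C segment column named TRBC1 beside nearly all J segments, and was not used.

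**Figure D5:**
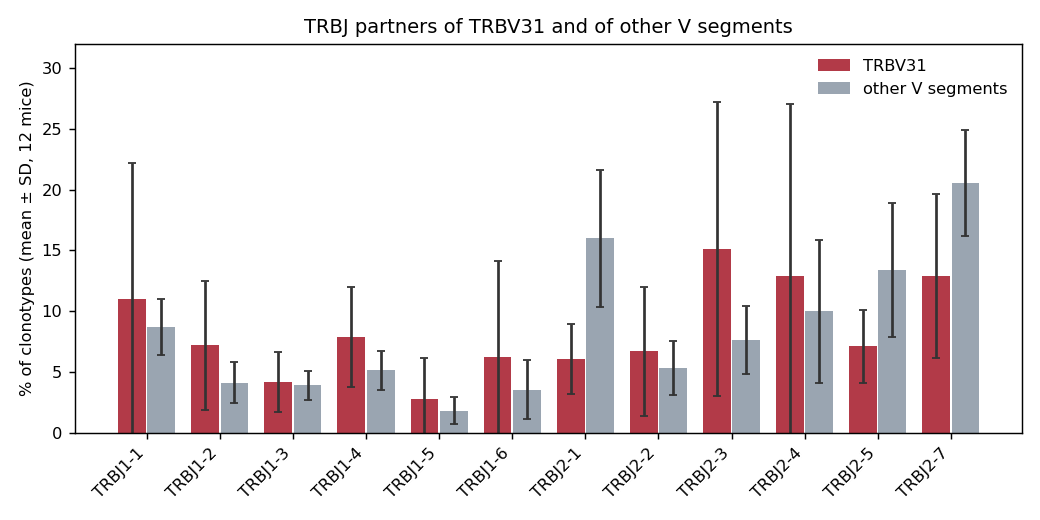
Percentage of clonotypes (y axis) using each of 12 TRBJ segments (x axis) for TRBV31 and for all other V segments, as bars of the mean with the SD over 12 mice. TRBJ2-1 and TRBJ2-5, the segments called in the paired test, are lower for TRBV31, and the SD is widest for TRBJ1-1, TRBJ2-3 and TRBJ2-4.

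The 1141 TRBV31 rows with the stop mark were of 3 kinds. An ambiguous base in the CDR3, which leaves a codon unread, was found in 793 (69.5%), a length that is no multiple of 3 in 301 (26.4%) and an in-frame stop codon in 47 (4.12%). The out-of-frame rows held 9887 of the 13443 counts (73.5%). Of the 793 ambiguous rows 703 (88.7%) matched a productive TRBV31 sequence of the same tumor at every other base.

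The share of TRBV31 among distinct sequences was 3.76% ± 1.63 for productive and 4.27% ± 1.89 for all stop-marked ones, a difference of -0.510 points ± 1.40 (SD, 12 mice, exact sign-flip p = 0.252), or -0.202 without mouse 16. It was 4.73% ± 2.39 without ambiguous bases (difference -0.964, exact p = 0.178) and 6.22% ± 3.57 among out-of-frame sequences alone (difference -2.46, p = 0.0269), where TRBV31 had the larger share in 9 of 12 mice. Without mouse 16 the out-of-frame difference was -1.55 (exact p = 0.0537), and the call was also lost without any 1 of mice 6, 4 and 10. With ambiguous bases and near copies both left out, the difference was -2.01 points (exact p = 0.0396), with the call lost without any 1 of 7 mice. At a minimum of 5 counts the difference from all stop-marked sequences was 0.720 points the other way (exact p = 0.0942). The sign was thus the same for every choice of non-productive rows at 2 counts, while the size and the call differed between these choices. It turned at the higher minimum for all stop-marked sequences, and out-of-frame sequences alone were not tested there. Among out-of-frame sequences alone, of which TRBV31 had 0 to 39 per tumor, the CDR3 averaged 42.0 ± 1.42 bases for TRBV31 and 43.4 ± 1.14 for other segments pooled (difference -1.41, exact sign-flip p = 0.0186), shorter in 9 of 12 mice. The bases between the V and J matches averaged 12.1 ± 1.48 and 14.4 ± 2.00 (difference -2.30, exact p = 0.0117), fewer in 10 of 12 mice.

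The largest non-productive TRBV31 sequence by share of a library's non-productive counts was an out-of-frame joint to TRBJ2-4 in mouse 16. It is printed with that of mouse 4, the next by share, which was chosen after its values were seen. Capitals again mark the bases between the V and J matches:
Mouse 16, TRBJ2-4, 41 bases: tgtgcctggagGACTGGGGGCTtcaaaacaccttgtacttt
Mouse 4, TRBJ2-7, 41 bases: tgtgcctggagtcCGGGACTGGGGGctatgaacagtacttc
The first held 176 of 78798 non-productive counts in tumor 1 (0.223%, interval 0.192% to 0.259%) and 2276 of 29274 in tumor 2 (7.77%, 7.47% to 8.09%). The second held 0 of 10667 in tumor 1, which allows a share of up to 0.0281%, and 812 of 12903 in tumor 2 (6.29%, 5.88% to 6.73%). Like the leading productive clonotypes of these mice, both differed between tumors well beyond counting error. No non-productive TRBV31 sequence was found in more than 1 mouse.

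The V segments whose count share followed that of TRBV31 most closely over the 12 mice were TRBV14 (Spearman's rho 0.80), TRBV30 (0.68) and TRBV29 (0.66). These coefficients describe 12 mice whose shares all have the same totals as denominators, so that they are not independent of each other.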

How the data were processed

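Whole-tumor RNA of 12 mice was made into TCRβ libraries with unique molecular identifiers. The authors ran the Immune Profiler software with its identifier-based analysis, and the deposited tables hold 1 whole-number count per receptor sequence, unnormalized. The study calls these counts reads, and how reads of 1 identifier were combined is not given in the sources used here, nor is the germline reference. Junction lengths are in the tables too. Rows with 2 or more counts were kept. Clonotypes shared CDR3 amino acids, V and J segment. Tests used 1 value per mouse, the mean of its tumors: exact permutation between groups and exact sign-flip between paired values, two-sided. V segments with at least 10 counts in 3 mice were fitted with edgeR 4.0.16 (quasi-likelihood, mouse as a block between tumors). DESeq2 1.42.0 was an alternative. Scripts were tested on simulated data. Insert lengths came from V and J ends taken from sequences without near copies. These ends were extended base by base, while over 50% of at least 50 sequences matching so far shared the next base. Python 3.11.15, scipy 1.17.1 and R 4.3.3 were used. The named clonotypes were the largest of each mouse, the 3 found in most mice (ties by summed share), the largest difference per group, the leading non-productive sequence, 3 V segments most like TRBV31 and every TRBJ with at least 1% of its clonotypes. The segment, lists and tests were chosen with earlier results of these data known. The mouse pairs its tumors, as 23 of 24 tumors also showed by their highest TRBV31 overlap. Where nothing states separate experiments, p-values measure the spread between these mice.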

Additional observations from a re-analysis of the deposited data

Results flagged for a closer look

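Among 27 groups of values that were examined for a single value far from the rest, 2 had one. By chance about 1 in 20 groups would have one, so 2 of 27 is no clear excess. Both are the same tumor and are not independent. Tumor 2 of the time-separated mouse 19 had a TRBV31 share of 0.358% of productive counts, while the other 5 tumors of its group had 3.61% to 5.12%. Its TRBV31 share of clonotypes was 1.01%, with 4.51% to 6.42% in the others. It held 19 TRBV31 clonotypes. Its 10 largest clonotypes of any V segment took 72.5% of its counts, the highest value of its group. No cause was tested.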

How the results depend on the processing

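The alternatives changed the minimum count, near copies, large clonotypes, weights, the clonotype definition, the tool and the set of mice. Apart from 40 values of the comparisons of 3 against 3 mice, which cannot pass the threshold, 221 of 285 kept direction and side of the threshold or count, and the rest follow, the cause not tested. Leaving out the largest TRBV31 clonotype gave 1.20 points for all 9 time-separated minus time-matched mice, 0.128 for low-dose minus time-separated, and -0.353 for the Morisita-Horn difference (-0.360 with the largest clonotype of other segments out too). Low-dose minus time-separated was also above 0 with clonotypes counted once (0.763), without the 10 largest clonotypes (3.42) and on the log2 scale (0.11), and tumor 2 minus tumor 1 without those 10 (0.879), none past the threshold. Without near copies the CDR3 length difference was 0.0447, at a minimum of 5 counts 0.0583, with single counts kept 0.227, against segments taken alone without near copies 0.0541, in bases of stop-marked sequences 0.989 and of out-of-frame sequences -1.41. The insert difference was -1.13 with single counts kept, -0.678 for stop-marked sequences, 0.0350 against segments taken alone and 1.42 weighted by counts. The TRBJ2 difference was -13.3 points for stop-marked sequences, -9.91 for out-of-frame ones and -8.66 against segments taken alone. The stop-marked TRBV31 rows are mostly ambiguous copies of productive sequences, so their values are no measure of non-productive joints. Productive minus non-productive share was 0.720 for all stop-marked sequences at a minimum of 5 counts. At 2 counts it was -2.46 for out-of-frame sequences and -2.01 without ambiguous bases and near copies. Drawing as many other clonotypes as TRBV31 had gave 6.17 points for the share found in other mice, and 8.26 with near copies out as well. The draw itself lowers the share of the other segments, since a clonotype must be drawn in both mice, so these values say nothing of the direction. The difference was -1.24 for segments taken alone without near copies. Called TRBJ segments numbered 1 with counts as weights and 4 without near copies. DESeq2 called 2 V segments between time-separated and time-matched mice and 4 between tumors, and clonotypes counted once gave 2 between tumors. The mouse pairs the tumors: without that block the tumor difference was -0.126 (exact permutation p = 0.892) and 0 V segments were called.

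Leaving out 1 mouse at a time gave 1.84 to 2.55 points for all 9 time-separated minus time-matched mice (lowest exact permutation p without mice 16 and 10), -0.939 to 0.303 for low-dose and -2.59 to -0.0888 for high-dose minus time-separated (the former above 0 without mouse 11 or 17) and -0.563 to 0.265 for tumor 2 minus tumor 1 (above 0 without mouse 17, 19 or 10). It gave -14.0 to -9.25 points for TRBJ2, 0.155 to 0.252 residues for CDR3 length (the call lost without any 1 of mice 6, 14, 4, 3, 11, 20, 7, 10 and 16), -1.92 to -1.33 bases for inserts (lost without any 1 of mice 6, 12, 14, 19, 11, 20, 10 and 16), -0.292 to -0.180 for the Morisita-Horn index against other segments and -0.264 to 0.00227 between groups, 0.402 to 0.815 for the log2 ratio between tumors, and -0.685 to -0.202 for productive minus non-productive share. Called V segments ranged from 0 to 1 between time-separated and time-matched mice and from 0 to 2 between tumors. These choices were partly added after seeing the data: leaving out the 10 largest clonotypes, ambiguous bases, near copies jointly with another choice or for TRBJ calls, the largest clonotype of both sides, segments taken alone, and out-of-frame sequences for lengths and TRBJ2. With 3 mice per group and 1 library per tumor, differences between groups smaller than the spread between mice were not detectable.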
